A study of Mus musculus with 10 samples.

Results

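The genes described here are the 6 sialyltransferase genes of the mouse St8sia family, St8sia1 to St8sia6, and the neural cell adhesion molecule genes Ncam1 and Ncam2. They were chosen by gene symbol, all 8 were found among the 35275 genes of the deposited table, and all 8 were among the 17435 genes that passed the filter on low counts. The family was picked because St8sia2 had the smallest p-value of the whole table in the comparison of vigabatrin with vehicle, so every difference between these groups given below is a description and supports nothing further.

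The libraries were made from retinas of C57BL/6 mice aged 10 to 12 weeks. In 5 libraries the mice had received vigabatrin (140 mg/kg/day, for 11 days, by subcutaneous osmotic pump), and in the other 5 the treatment label reads vehicle, although their titles call them untreated. Vigabatrin, used against epilepsy, blocks the breakdown of the inhibitory transmitter GABA by GABA transaminase. Each library is called by its group and its title number.

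Polysialic acid is a long chain of sialic acid residues that is attached mainly to the neural cell adhesion molecule NCAM1, where its bulk and charge weaken adhesion between cells. Only St8sia2 and St8sia4 encode the polysialyltransferases of NCAM1, and in the brain St8sia2 is known as the enzyme of development and St8sia4 as the one that prevails in adults. The other family members add single or few sialic acids in the same linkage, to gangliosides (St8sia1, which makes GD3, and St8sia5) or to glycoproteins (St8sia3 and St8sia6). NCAM2 is a relative of NCAM1 that is known from olfactory axons and is not regarded as a carrier of polysialic acid.

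The start regions of the genes for the 2 polysialyltransferases are shown because these are the enzymes the results turn on. Each sequence is the 250 bases before the RefSeq start of the gene in build GRCm38.p6, written 5′ to 3′ on the gene's own strand. Capitals mark GC boxes, the letters GGGCGG on either strand.
St8sia2 (chr7:74013683-74013932, minus strand): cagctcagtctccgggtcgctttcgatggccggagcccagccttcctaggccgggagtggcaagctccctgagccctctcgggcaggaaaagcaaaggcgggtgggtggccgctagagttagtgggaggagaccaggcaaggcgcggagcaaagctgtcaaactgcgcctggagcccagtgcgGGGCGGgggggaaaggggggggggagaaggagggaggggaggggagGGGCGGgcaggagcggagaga
St8sia4 (chr1:95667595-95667844, minus strand): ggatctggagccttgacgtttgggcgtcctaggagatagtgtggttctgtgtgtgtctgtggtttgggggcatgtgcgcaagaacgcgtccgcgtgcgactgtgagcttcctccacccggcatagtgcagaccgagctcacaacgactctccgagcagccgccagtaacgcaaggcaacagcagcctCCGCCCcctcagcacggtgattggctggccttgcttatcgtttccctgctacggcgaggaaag

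The St8sia2 window held 2 GC boxes and the St8sia4 window held 1, and 32.7% of 32841 such windows in the RefSeq table held at least 1. The cAMP response element TGACGTCA and the TATA box TATAAA, searched on both strands, occurred 0 times in both windows, against 1.55% and 12.4% of all windows. The St8sia2 window had 15 CG dinucleotides and a GC content of 68.8%, and the St8sia4 window had 19 and 60.4%, where the median window had 6 CG dinucleotides. Of the 8 genes, 5 were matched in that table. These matches describe letters, not binding.

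The libraries held 36056135 (vehicle 2345) to 54052502 (vigabatrin 2429) counted reads. Markers of retinal bipolar cells summed to 1387 to 1518 CPM after vigabatrin and 1372 to 1516 CPM in vehicle (CPM, counts per 1000000 counted reads after TMM scaling), so the labelled tissue was found in every library. Lens transcripts from 20 marker genes took 1.30% to 2.0% of the counts in 4 libraries (vigabatrin 2344 and 2429, vehicle 835 and 1582) and at most 0.126% in the other 6. The lens markers Crygd, Cryge and Crygf were at 0 counts in 1 library, Birc7 in 3 and Lim2 in at least 5. Of 18 tested lens markers 18 had a higher mean after vigabatrin, with a summed level of 5.06 to 20408 CPM after vigabatrin and 38.7 to 19745 CPM in vehicle, and 0 were called. Summed markers of pigment epithelium and choroid ranged over 690.1 to 1497 CPM after vigabatrin and 674 to 2560 CPM in vehicle. Of these 16 markers 14 had a lower mean after vigabatrin, 4 of them with an unadjusted p under 0.05 (edgeR quasi-likelihood test). Of all tested genes, 3.69% had a lower mean with such a p. The median log2 fold change of the 16 was -0.98, against -0.0013 for all tested genes. The summed level hides much of their variation. Rlbp1, also on the Müller glia list, had 11989 to 18940 counts per library and Trpm1 10897 to 21285, whereas Dct had 75 to 31658 and Pmel 37 to 18932. The pigment epithelium term used below is the log2 of this sum. The title numbers of all vigabatrin libraries lie above 2000, and vehicle 2345 is the only vehicle library in that range. Whether the libraries stem from different animals is not stated, and p-values therefore cover only library-to-library spread, which may be technical. In whole retina, more cells that express a gene and more RNA per cell cannot be told apart.

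Per gene length, Ncam1 was the most abundant of the 8 transcripts and St8sia4 the least. As RPKM, the CPM divided by the deposited gene length in kilobases, Ncam1 averaged 93.8 ± 5.41 after vigabatrin and 90.03 ± 4.76 in vehicle (SD, n = 5 each). St8sia1, the GD3 synthase, came next with 26.5 ± 1.98 RPKM after vigabatrin and 27.1 ± 1.49 RPKM in vehicle. Ncam1 stood above St8sia1, and St8sia1 above St8sia5, in 10 of 10 libraries, with ranges that did not overlap.

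The next 3 levels lay close together. Over all 10 libraries the mean was 4.96 RPKM for St8sia5, 4.90 RPKM for St8sia2 and 4.13 RPKM for St8sia3, which encodes an enzyme of brain glycoproteins. St8sia5 exceeded St8sia2 in 1 of 5 vigabatrin libraries and in 4 of 5 vehicle libraries, and their ranges overlapped in both groups. St8sia2 exceeded St8sia3 in 5 of 5 vigabatrin libraries and in 3 of 5 vehicle libraries, so these neighbours did not differ beyond their spread in vehicle retina. Ncam2 followed at 2.80 ± 0.37 RPKM after vigabatrin and 2.60 ± 0.543 RPKM in vehicle (SD, n = 5 each).

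St8sia6 and St8sia4 were scarce. St8sia6 averaged 0.285 ± 0.0707 RPKM after vigabatrin and 0.281 ± 0.0793 RPKM in vehicle, and St8sia4 averaged 0.162 ± 0.0137 RPKM after vigabatrin and 0.115 ± 0.039 RPKM in vehicle (SD, n = 5 each). St8sia6 was above St8sia4 in 10 of 10 libraries, although their ranges overlapped among the vehicle libraries. These levels depend on the gene length: the union of exons in GENCODE M21 is 2.73 times the deposited length for St8sia5, 2.39 times for Ncam1, 2.32 times for Ncam2, 2.0 times for St8sia4 and 1.86 times for St8sia3. With that length St8sia2 took place 3 of 8, above St8sia3 and St8sia5 in 10 of 10 libraries, and the places of the other 5 genes were the same.

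**Figure D1:**
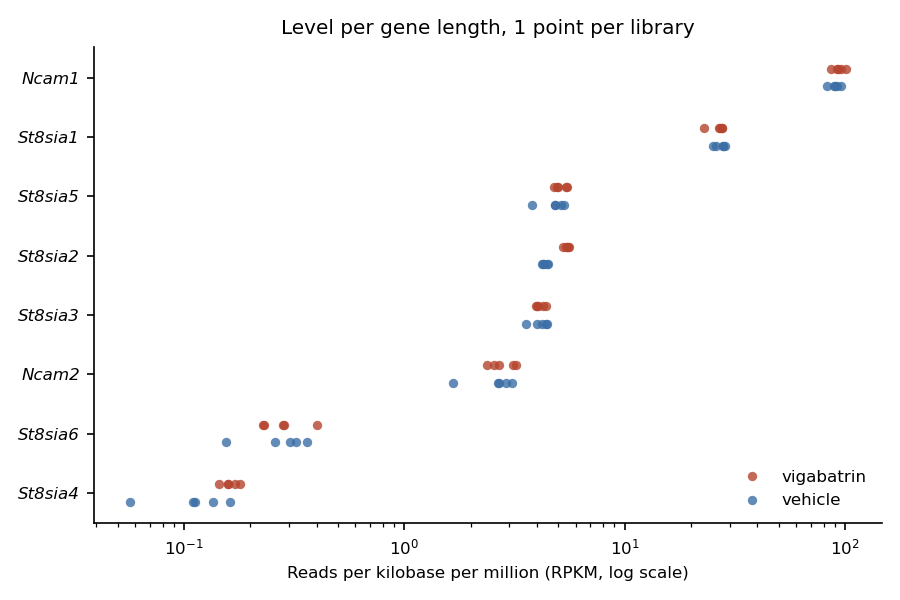
Level per gene length (RPKM on the deposited length, log scale) of the 8 genes, ordered from the highest mean at the top; each point is 1 library, with vigabatrin libraries above vehicle libraries. Ncam1 and St8sia1 stand apart at the top, and St8sia4 lies lowest with means of 0.162 RPKM after vigabatrin and 0.115 RPKM in vehicle.

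St8sia2 was thus the main polysialyltransferase transcript of these adult retinas. It made up 97.1% ± 0.18 of the summed St8sia2 and St8sia4 level per length after vigabatrin and 97.4% ± 0.847 in vehicle (SD, n = 5 each). With the exon union length these shares were 98.5% after vigabatrin and 98.7% in vehicle. Since St8sia2 so outweighs St8sia4, the summed level of both enzymes followed St8sia2, at 5.63 ± 0.134 RPKM after vigabatrin and 4.46 ± 0.125 RPKM in vehicle.

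St8sia2 was higher after vigabatrin, and the libraries within each group lay close together. St8sia2 (ENSMUSG00000025789) lies on the minus strand of chromosome 7 in mm10, between 73939119 and 74013682. Its level was 29.3, 28.3, 29.9, 30.0 and 29.4 CPM in vigabatrin 2344, 2347, 2349, 2428 and 2429, against 23.8, 22.9, 22.7, 24.1 and 23.2 CPM in vehicle 832, 835, 1580, 1582 and 2345. The lowest vigabatrin library, at 28.3 CPM, lay above the highest vehicle library, at 24.1 CPM, and vehicle 2345, which shares the title range of the treated libraries, lay within the range of the other 4 vehicle libraries. The fit gave a log2 fold change of 0.33 (standard error, SE, 0.04), a 1.26-fold difference with a 95% interval of 1.19 to 1.33, and an adjusted p of 0.0391 (edgeR quasi-likelihood test, Benjamini-Hochberg adjustment over all genes). This is the value that led to the choice of these genes.

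Of the 8 genes 1 was called at an adjusted p under 0.05, where 0.00574% of all tested genes were called, and 1 had groups that did not overlap, where 1.48% of all tested genes did (0.849% with vigabatrin above and 0.631% with vigabatrin below). Both counts are St8sia2 itself. An unadjusted p under 0.05 was found for 2 genes, St8sia2 and St8sia4, where 7.36% of all tested genes had one (3.68% higher and 3.69% lower). A higher mean after vigabatrin was found for 7 of the 8 genes, against 49.4% of all tested genes. Nothing is read from these counts, since the choice of the genes used the same contrast.

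**Figure D2:**
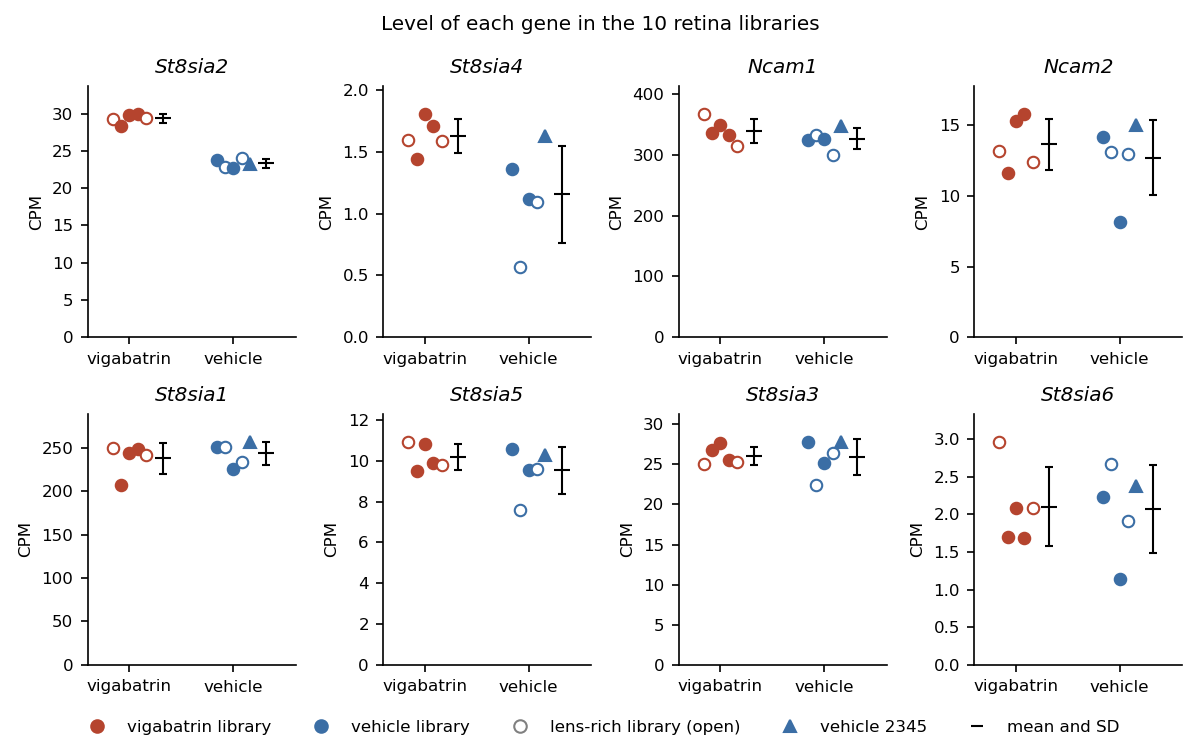
Level of each gene (CPM, axes from 0) in every library, vigabatrin left and vehicle right, with the mean and SD beside the points; open circles are the 4 lens-rich libraries and the triangle is vehicle 2345. The groups are apart for St8sia2 (28.3 to 30.0 CPM after vigabatrin, 22.7 to 24.1 CPM in vehicle) and overlap for the other 7 genes.

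The spread of St8sia2 between libraries of a group was small. Its log2 CPM had a within-group SD of 0.033, below the 0.042 that counting noise alone gives at its 841 to 1591 counts. Of the 5141 tested genes within 1 log2 unit of its mean CPM, 20 (0.389%) had a smaller SD, and their median SD was 0.10. Its fold change was less unusual: 86 of those 5141 genes (1.67%) and 1389 of all 17435 tested genes (7.97%) had a larger absolute log2 fold change. The test that ranked the genes sets a difference against its spread, so a small spread goes with the choice of St8sia2 and is no separate result.

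The other family members had ordinary spreads for their level. The within-group SD of log2 CPM was 0.10 for St8sia1, 0.10 for St8sia3, 0.14 for St8sia5 and 0.08 for Ncam1, at the percentiles 69.8, 46.3, 52.4 and 50.6 of genes of like level. Ncam2 was the most variable for its level, with an SD of 0.27 at percentile 87.9, and St8sia6 and St8sia4 had 0.32 and 0.27 at percentiles 81.4 and 72.7.

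**Figure D3:**
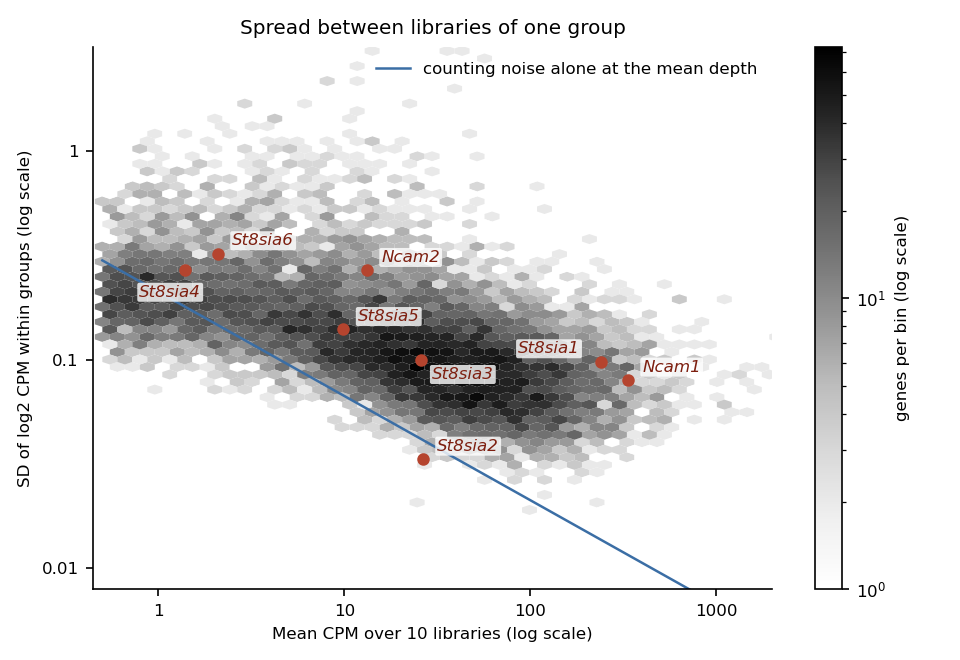
Within-group SD of log2 CPM against mean CPM (both log scales) for tested genes above 0.5 mean CPM, shaded by the number of genes per bin; red points are the 8 genes and the line is the SD from counting alone at the mean depth. St8sia2, at 0.033, lies under the line and at the lower edge of genes of its level.

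The call of St8sia2 was easily lost although its fold change hardly moved. Over 18 alternative settings its log2 fold change was 0.321 to 0.344, and it was called in 4 of them (adjusted p of 0.0329 with DESeq2 size factors, 7.52e-10 with the DESeq2 Wald test, 0.0235 without vehicle 2345 and 0.046 with lens and pigment epithelium terms). Leaving out any single library other than vehicle 2345 ended the call, with adjusted p between 0.0503 and 0.262. Without the 4 lens-rich libraries the log2 fold change was 0.34 (SE 0.05, adjusted p = 0.603), at 28.3 to 30.0 CPM in 3 vigabatrin libraries and 22.7 to 23.8 CPM in 3 vehicle libraries. With a term for title range it was 0.339 (SE 0.07, adjusted p = 1), a value in which vehicle 2345 alone stands for vehicle beside the treated libraries.

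St8sia4, the polysialyltransferase of the adult brain, had a higher mean after vigabatrin but overlapping groups. St8sia4 (ENSMUSG00000040710, chromosome 1 from 95587682 to 95667571, minus strand) had 71, 58, 94, 79 and 86 counts in vigabatrin 2344, 2347, 2349, 2428 and 2429, against 71, 27, 51, 50 and 59 counts in vehicle 832, 835, 1580, 1582 and 2345. As CPM these were 1.59, 1.45, 1.81, 1.71 and 1.59 after vigabatrin, against 1.36, 0.573, 1.12, 1.10 and 1.63 in vehicle. Vehicle 2345 lay inside the vigabatrin range, the other 4 vehicle libraries lay below it, and vehicle 835 was lowest.

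The log2 fold change of St8sia4 was 0.50 (SE 0.22, adjusted p = 0.671, edgeR quasi-likelihood test). With a term for title range it was 0.001 (SE 0.35), and without vehicle 835 it was 0.327 (SE 0.14). Title number and treatment cannot be told apart beyond the single vehicle library they do not share. At 27 to 94 counts per library, counting noise alone gives an SD of 0.19 on the log2 scale, computed without adding 0.5 CPM. The SD seen within groups was 0.27 with that addition, which lowers the spread at such low levels. These values therefore understate how far the spread exceeded counting noise.

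Ncam1, the main carrier of polysialic acid, had overlapping groups and did not pass the test. Ncam1 (ENSMUSG00000039542, chromosome 9 from 49504361 to 49798922, minus strand) had 368, 336, 349, 333 and 315 CPM in vigabatrin 2344, 2347, 2349, 2428 and 2429, against 325, 334, 326, 301 and 348 CPM in vehicle 832, 835, 1580, 1582 and 2345. The groups overlapped over most of their range, with the highest library in the vigabatrin group and the lowest in vehicle. The log2 fold change was 0.06 (SE 0.05), and the 95% interval of the fold ran from 0.964 to 1.12. The log2 fold change was 0.026 without vehicle 1582, 0.029 without vigabatrin 2344 and 0.028 without the 4 lens-rich libraries. Counts per gene do not separate the splice forms of NCAM1, which differ in their membrane anchor, and the table says nothing on polysialic acid itself.

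Set against its carrier, St8sia2 stood at 5.84% ± 0.355 of the Ncam1 level per length after vigabatrin and at 4.84% ± 0.355 in vehicle (SD, n = 5 each). The groups overlapped here, since vigabatrin 2344 at 5.37% lay just below vehicle 1582 at 5.40%. The 2 libraries are those with the highest and the lowest Ncam1 level. With the exon union length, which is longer for Ncam1, the ratio was 13.9% ± 0.847 after vigabatrin and 11.5% ± 0.846 in vehicle.

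Ncam2 (ENSMUSG00000022762, chromosome 16 from 81200697 to 81624285, plus strand) had 13.2, 11.7, 15.3, 15.8 and 12.4 CPM in vigabatrin 2344, 2347, 2349, 2428 and 2429, against 14.2, 13.1, 8.18, 13.0 and 15.02 CPM in vehicle 832, 835, 1580, 1582 and 2345. The groups overlapped, and vehicle 1580 was the lowest library. The log2 fold change was 0.11 (SE 0.15), and without vehicle 1580 it was -0.017. Ncam1 exceeded Ncam2 per length by 34.0 ± 4.47 times after vigabatrin and 36.3 ± 9.86 times in vehicle (SD, n = 5 each).

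The ganglioside enzymes of the family did not pass the test. St8sia1 (ENSMUSG00000030283, chromosome 6 from 142821545 to 142964452, minus strand) had 249.7, 207, 244, 249 and 241 CPM in vigabatrin 2344, 2347, 2349, 2428 and 2429, against 251, 250.6, 226, 233 and 257 CPM in vehicle 832, 835, 1580, 1582 and 2345. It was the only one of the 8 genes with a lower mean after vigabatrin, with a log2 fold change of -0.03 (SE 0.06) that measured 0.014 without vigabatrin 2347, its lowest library. St8sia5 (ENSMUSG00000025425, chromosome 18 from 77185853 to 77255450, plus strand) had 10.9, 9.52, 10.8, 9.90 and 9.80 CPM after vigabatrin, against 10.6, 7.59, 9.57, 9.60 and 10.3 CPM in vehicle, in the same order of libraries.

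Vehicle 835 was low for St8sia5, and the other 9 libraries shared 1 range. Its log2 fold change was 0.10 (SE 0.09), with 0.028 without vehicle 835 and -0.007 without the 4 lens-rich libraries. The start of St8sia5 overlaps the predicted gene Gm7276 on the opposite strand, which had 16 to 60 counts against 358 to 563 for St8sia5. Gm15957, on that strand within St8sia5, had 0 to 1. Likewise on the opposite strand, Gm7457 had 6 to 20 counts against 8301 to 13078 for St8sia1, and Gm11149 had 7 to 50 against 12618 to 18139 for Ncam1. The strand setting of the counting is unknown here, and reads of such overlapping pairs cannot be told apart.

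The family members that act on glycoproteins had overlapping groups and did not pass the test. St8sia3 (ENSMUSG00000056812, chromosome 18 from 64254359 to 64276146, plus strand) had 25.0, 26.8, 27.6, 25.5 and 25.2 CPM in vigabatrin 2344, 2347, 2349, 2428 and 2429, against 27.8, 22.4, 25.2, 26.5 and 27.8 CPM in vehicle 832, 835, 1580, 1582 and 2345. The vigabatrin libraries lay within the vehicle range, and vehicle 835 was again lowest. The log2 fold change was 0.01 (SE 0.06), with a 95% interval of the fold from 0.912 to 1.11, and its antisense gene St8sia3os had 9 to 27 counts.

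St8sia6 (ENSMUSG00000003418, chromosome 2 from 13651020 to 13793808, minus strand) had 2.96, 1.69, 2.08, 1.69 and 2.09 CPM after vigabatrin, against 2.23, 2.67, 1.14, 1.91 and 2.37 CPM in vehicle, in the same order of libraries. Single libraries set its range, with vigabatrin 2344 highest and vehicle 1580 lowest. The log2 fold change was 0.03 (SE 0.23), and the 95% interval of the fold, 0.719 to 1.44, includes the 1.26-fold difference of St8sia2.

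**Figure D4:**
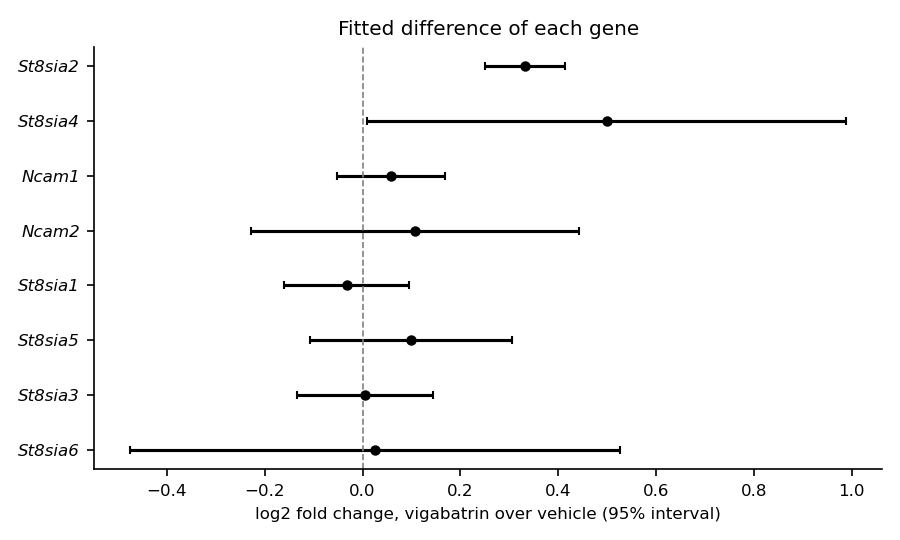
Fitted log2 fold change of each gene, vigabatrin over vehicle, with its 95% interval from the edgeR fit (n = 5 libraries per group). The intervals of St8sia2 (0.25 to 0.41) and of St8sia4 (0.01 to 0.99) lie above 0, St8sia4 with an adjusted p of 0.671, and those of the other 6 genes include 0.

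**Figure D5:**
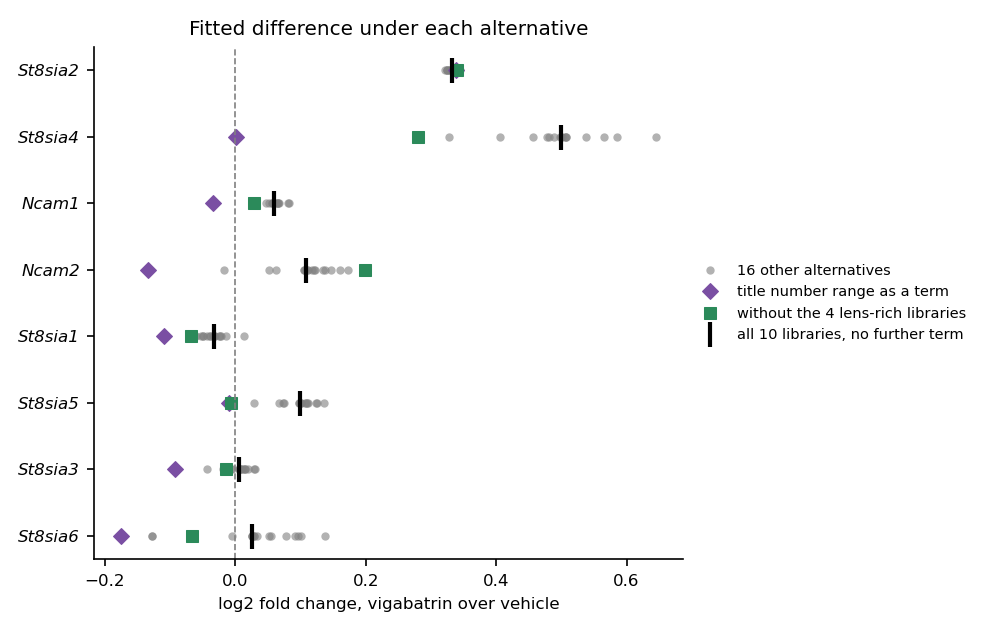
Log2 fold change of each gene, vigabatrin over vehicle, under 18 alternative settings (grey points, a square for the fit without the 4 lens-rich libraries and a diamond for a term for title range) and with all 10 libraries (bar). St8sia2 stays between 0.321 and 0.344, whereas St8sia4 ranges from 0.001 to 0.645.

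The rest of the sialic acid pathway and of the adhesion molecules was described by lists of 75 genes, of which 71 were tested, 0 were called higher and 0 lower by the edgeR test, and 3 higher and 2 lower had an unadjusted p under 0.05, against 3.68% higher and 3.69% lower of all tested genes. DESeq2 and limma-voom also called 0 of them. Their median log2 fold change was 0.01, against -0.0013 for all tested genes.

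Genes that supply CMP-sialic acid, the donor of all sialyltransferases, were 3 higher and 4 lower of 7, with a median log2 fold change of -0.03. Gne, whose enzyme begins sialic acid synthesis, measured 0.02 (SE 0.05), Nans 0.04, Cmas, which activates sialic acid, -0.05 and Nanp -0.36 (SE 0.31). The genes of α2,3-sialyltransferases were 2 higher and 4 lower of 6 (median -0.04). St3gal2 measured 0.05, St3gal5, which makes the ganglioside GM3, 0.01, St3gal1 -0.06 and St3gal6 -0.57 (SE 0.37). St3gal6 was highest in the lens-rich vehicle 835 and 1582, at 9.61 and 6.06 CPM. It had 2.48 to 2.98 CPM in the other vehicle libraries and 2.49 to 4.72 CPM after vigabatrin.

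Those of α2,6-sialyltransferases were 4 higher and 3 lower of 7 tested (median 0.07). St6gal2 averaged 27.7 CPM after vigabatrin and 22.7 CPM in vehicle, a log2 fold change of 0.28 (SE 0.11, adjusted p = 0.621), smaller than that of St8sia2 and with a larger SE. St6galnac3 measured 0.44 (SE 0.20), St6galnac2 -0.11 and St6gal1 -0.16. Of the sialidases, which remove sialic acid, Neu3 measured 0.13 and Neu1 -0.06.

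Other steps of ganglioside synthesis were 3 higher and 4 lower of 7 (median -0.01). B4galt6, a lactosylceramide synthase, averaged 65.8 CPM after vigabatrin and 73.3 CPM in vehicle (log2 fold change -0.16, SE 0.05, adjusted p = 0.501), while its paralog B4galt5 measured 0.10, Casd1 0.07 and B3galt4 -0.11. Among other proteins known to carry polysialic acid in some tissues, Cadm1 measured 0.01, Nrp2 -0.02 and Cd36 0.10.

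Genes of NCAM partners, signalling and shedding were 4 higher and 10 lower of 14 (median -0.03). Bdnf, a growth factor, averaged 7.04 CPM after vigabatrin and 9.07 CPM in vehicle (log2 fold change -0.36, SE 0.11, adjusted p = 0.501), Prnp measured -0.06, Camk2a 0.09 and Ptpra, a phosphatase that binds NCAM, 0.06. Other adhesion molecules of the immunoglobulin superfamily were 19 higher and 6 lower of 25, with a median log2 fold change of 0.07. Nrcam measured 0.19 (SE 0.08, adjusted p = 0.644), Cntn4 0.15 (SE 0.07), Mcam -0.28 (SE 0.18) and Nfasc -0.05. Mcam was highest in the lens-rich vehicle 835 and 1582, at 12.9 and 10.7 CPM. It had 6.53 to 7.30 CPM in the other vehicle libraries and 6.63 to 8.64 CPM after vigabatrin.

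The genes whose profile over the 10 libraries was most like that of St8sia2, by the root mean square difference of centred log2 CPM, were Nlgn1 at 0.05, Rhobtb3 at 0.06 and Lphn3 at 0.06, where the median of 13125 genes was 0.20. Their log2 fold changes were 0.25, 0.27 and 0.23, and the edgeR test called 0 of the 3, at adjusted p-values of 0.269, 0.213 and 0.20. Those most like Ncam1 were Chd3 at 0.02, Ttyh2 at 0.03 and Myh14 at 0.03, against a median of 0.13. All profiles share the same libraries, scaling and group difference, so this is a description.

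Markers of retinal cell types are given beside the St8sia2 difference, and their part in it was not tested. For these lists and those that follow, 49.4% of all tested genes had a higher mean after vigabatrin. An unadjusted p under 0.05 was found for 3.68% of all tested genes with a higher mean and 3.69% with a lower one. Groups were apart for 0.849% with vigabatrin above and 0.631% with vigabatrin below. Of 10 amacrine markers 7 had a higher mean, 3 of them with an unadjusted p under 0.05 and 1 with groups apart, and their summed level was 1270 to 1337 CPM after vigabatrin and 1247 to 1282 CPM in vehicle. Of 12 Müller glia markers 7 had a higher mean, likewise 3 with an unadjusted p under 0.05 and 1 with groups apart, and 1 with a lower mean had such a p (5775 to 6919 CPM after vigabatrin, 5864 to 7562 CPM in vehicle). Of 11 ganglion cell markers 8 had a higher mean (946 to 1090 CPM after vigabatrin, 925 to 1043 CPM in vehicle).

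Other lists leaned the other way. Of 10 tested rod markers 1 is not reported here. The other 9 had a lower mean after vigabatrin, 2 of them with an unadjusted p under 0.05 and 1 with groups apart. A lower mean was also found for 5 of 6 horizontal cell markers (263 to 288 CPM after vigabatrin, 260.4 to 314 CPM in vehicle), for 4 of 5 astrocyte markers (49.9 to 75.8 CPM after vigabatrin, 49.4 to 92.3 CPM in vehicle) and for 4 of 5 tested cornea markers, 3 of these with an unadjusted p under 0.05 (235 to 380.4 CPM after vigabatrin, 226 to 384 CPM in vehicle). The cornea sum was mostly Tkt, at 8765 to 17243 counts per library, while Krt12 had 3 to 70. The median log2 fold change of the 5 tested cornea markers was -1.55. Bipolar cell markers were 4 higher and 5 lower of 9, and cone markers 5 higher and 4 lower of 9 (1157 to 1298 CPM after vigabatrin, 1075 to 1406 CPM in vehicle). The sums given overlapped between the groups, and the edgeR test called 0 of the marker genes. Among the lens-poor libraries alone, St8sia2 averaged 29.4 CPM after vigabatrin and 23.2 CPM in vehicle.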

How the data were processed

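RNA from 10 mouse retina libraries, 5 vigabatrin and 5 vehicle by the treatment label, was analysed from read counts per Ensembl gene as deposited by the authors. Per the submitters' processing notes, HTSeq 0.6.1, genome build mm10, DESeq2 and edgeR 3.16.5 were used. For aligner, annotation release and strand: not given in the sources used here. Of the count columns, 1 matches no sample used here and entered no step.

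After filterByExpr and TMM scaling, all genes were tested with edgeR 4.0.16 (glmQLFit, glmQLFTest; limma 3.58.1, DESeq2 1.42.0, R 4.3.3), in a model of group alone, and adjusted p under 0.05 as threshold. Standard errors are the log2 fold change over the root of F. Within-group SDs and profiles use log2(CPM + 0.5). RPKM uses the deposited gene length. The procedure was tested on simulated data. Within groups, all 20 library pairs had a chi-square statistic of 8.47 to 142 per degree of freedom, above counting noise, and none was merged. Totals of 36056135 to 54052502 counts gave a median SE of 0.09.

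The genes and lists were chosen with earlier results of these data known. Named genes are the 8 members, the 2 of smallest p per direction in each pathway list, the 3 nearest profiles to St8sia2 and Ncam1, and genes that overlap a member in position. Alternatives covered scaling, filter, tool, left-out libraries, lens and pigment epithelium levels, and title number range. A library was lens-rich above 1% lens counts.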

Additional observations from a re-analysis of the deposited data

Results flagged for a closer look

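For the 8 genes and the named genes of the pathway lists, 74 groups of 5 libraries were examined. In 5 of these groups a single library stood far outside the rest. Chance flags about 1 in 20 groups, here 3.7. Among the 8 genes, vigabatrin 2347 was low for St8sia1 at 207 CPM, against 241 to 249.7 CPM in the other 4 vigabatrin libraries. Among the pathway genes, vigabatrin 2344 was high for St6gal1 at 9.56 CPM (others 7.56 to 7.99), and vehicle 1582 was low for Gne at 39.3 CPM (others 43.9 to 45.4). Vehicle 2345 was high for St3gal2 at 53.9 CPM (others 47.6 to 49.1), and vehicle 835 was high for Cadm1 at 480 CPM (others 388 to 399).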

How the results depend on the processing

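The edgeR test called 1 gene, St8sia2. It called 0 genes and 0 of the 8 with library size only, without the filter on low counts, with limma-voom, without the 4 lens-rich libraries and with a term for title range (for St8sia2, adjusted p between 0.0501 and 1). DESeq2 called 86 genes (37 higher, 49 lower), and with lens and pigment epithelium levels as terms 4 genes were called, St8sia2 among both. Leaving out 1 library gave 0 to 39 genes and 0 to 1 of the 8, with the highest counts without vehicle 2345. Pathway genes were called in none of the 18 alternatives. St8sia2 kept its direction and size throughout, while St8sia4 measured 0.001 (SE 0.35) with the title range term. Ncam1 measured 0.026 to 0.082 with 1 library left out. Signs turned for values near 0: with 1 library left out St8sia1 ranged from -0.06 to 0.014, St8sia3 from -0.043 to 0.03, St8sia6 from -0.128 to 0.137 and Ncam2 from -0.017 to 0.173. Without the lens-rich libraries St8sia3 measured -0.015, St8sia5 -0.007 and St8sia6 -0.066. With the title range St8sia3 measured -0.093, St8sia5 -0.01, St8sia6 -0.175, Ncam1 -0.034 and Ncam2 -0.134, and with the tissue levels St8sia3 measured -0.019. The cause was not tested. St8sia4 and St8sia6 had only 27 to 132 counts per library. No paired analysis was possible because the groups share no title number.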
